A study of Homo sapiens with 40 samples.

Results

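The 10 transcription factors followed here pull breast epithelial cells in opposite directions along the epithelial-mesenchymal transition (EMT). They were listed by symbol and found by Ensembl identifier, all 10 of 10, among the 60708 genes counted in each RNA-seq library. SNAI1 (Snail), SNAI2 (SLUG), ZEB1, ZEB2, TWIST1, TWIST2 and PRRX1 are factors known to promote EMT, and GRHL2, OVOL1 and OVOL2 are factors known to maintain the epithelial state. The data are raw fragment counts of 24 libraries, 3 in each of 8 groups. MI-spheres were 3D cultures of MCF-10A, an immortalised non-tumorigenic breast epithelial line, and MII-spheres were 3D cultures of its HRAS-transformed derivative MCF-10AneoT. Both were left unstimulated (Ctrl) or received 2.5 ng/ml of TGFβ1 for 16 h. MDA-MB-231 cells, a triple-negative breast carcinoma line with mesenchymal features, grew as monolayers in medium with serum and were either unedited (WT), edited in SNAI2 with Cas9 and 1 guide RNA at the start of its first exon (SLUG KO), transfected with siRNAs against SMAD2, SMAD3 and SMAD4 (siSMAD2/3/4) or transfected with a control siRNA (Csi). The SLUG KO cells descended from single-cell colonies, and the labels do not say whether the 3 libraries share a clone. Spheres and MDA-MB-231 differ in line, culture format and medium together, so these cannot be told apart. In bulk RNA, fewer cells of a type and less RNA per cell cannot be told apart either.

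As background, the SNAI and ZEB zinc-finger proteins repress epithelial genes such as CDH1 (E-cadherin) by binding E-box sequences, whereas TWIST1 and TWIST2 are basic helix-loop-helix factors and PRRX1 is a homeobox factor. GRHL2 and the OVOL proteins activate epithelial genes or repress ZEB1, and ZEB1 represses them in turn. The miR-200 family and miR-205 target ZEB1 and ZEB2 transcripts, and ZEB1 represses the miR-200 genes, so that epithelial and mesenchymal states tend to hold themselves in place. TGFβ is a classical inducer of EMT, acting through SMAD2, SMAD3 and SMAD4.

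The 2 sides of this circuit meet in short sequences, shown here because ZEB1, ZEB2 and the host gene of miR-200c and miR-141 differ so widely between the spheres and MDA-MB-231 below. The mature miRNAs (RefSeq, GRCh38.p14) are written 5′ to 3′ with the seed, bases 2 to 8, in capitals. The first 3 share a seed:
miR-200b-3p: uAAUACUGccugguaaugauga
miR-200c-3p: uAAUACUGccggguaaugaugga
miR-429: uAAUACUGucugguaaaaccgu
The next pair shares another seed, and miR-205-5p has its own:
miR-200a-3p: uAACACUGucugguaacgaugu
miR-141-3p: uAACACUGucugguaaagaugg
miR-205-5p: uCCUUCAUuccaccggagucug
The count files hold no mature miRNAs. They do hold 2 host transcripts: MIR200CHG, which contains miR-200c and miR-141, and MIR205HG, which contains miR-205.

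Seed matches were searched in the canonical 3′ UTRs of GENCODE v44 on the transcript strand. The letters CAGTATT, complementary to the first seed, occurred 6 times in the 2540 bases of the ZEB1 3′ UTR and 5 times in the 5370 bases of that of ZEB2, against at least 1 match in 16.2% and at least 3 matches in 0.874% of 19228 canonical 3′ UTRs. Among the other members SNAI2 held 1 such match and the other 7 held none. The letters CAGTGTT, for the second seed, occurred 3 times in ZEB1, 4 times in ZEB2 and 1 time in GRHL2 (at least 1 match in 18.3% of all 3′ UTRs), and ATGAAGG, for miR-205-5p, occurred 1 time, in ZEB1 (11.5% of all 3′ UTRs). The first 3 CAGTATT matches of each gene and the miR-205 match are shown in capitals with 11 bases on either side (GRCh38):
ZEB1, chr10:31527622-31527650, + strand: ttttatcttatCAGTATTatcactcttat
ZEB1, chr10:31527716-31527744, + strand: taaatccgcttCAGTATTttattatgttt
ZEB1, chr10:31528145-31528173, + strand: gtgccatttctCAGTATTttcaaggctct
ZEB2, chr2:144389042-144389070, - strand: ctaccatacatCAGTATTtttattattat
ZEB2, chr2:144388979-144389007, - strand: ctacaatgcatCAGTATTatgattcctct
ZEB2, chr2:144388621-144388649, - strand: agcacccatgtCAGTATTagaagaatagg
ZEB1, miR-205, chr10:31528071-31528099, + strand: tgtggtaacatATGAAGGatatgacatga
A match is a description of the letters only.

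The reverse arm, repression through E-boxes, is introduced with the promoter window of MIR200CHG (RefSeq, GRCh38.p14, chr12:6962995-6963294, + strand, 250 bases before to 50 after the start), with CACCTG and CAGGTG, the 2 strands of one E-box, in capitals:
MIR200CHG: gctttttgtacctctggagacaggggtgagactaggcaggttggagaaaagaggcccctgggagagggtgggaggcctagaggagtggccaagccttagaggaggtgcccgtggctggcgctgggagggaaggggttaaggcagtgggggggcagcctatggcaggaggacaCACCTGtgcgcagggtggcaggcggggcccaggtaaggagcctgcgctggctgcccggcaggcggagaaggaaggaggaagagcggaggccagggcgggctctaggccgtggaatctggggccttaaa
The window held 1 match, starting 78 bases before the start site. At least 1 match lay in 20.6% of 35116 promoter windows of the same length. Of the members, ZEB1, ZEB2, TWIST2 and PRRX1 had promoter windows in the table. The 7 windows of ZEB1 held 4 matches, of which 3 lay in 1 window, a number reached by 0.635% of windows, and the windows of ZEB2, TWIST2 and PRRX1 held none. These matches too describe letters only and show no binding or repression.

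Total counts per library ran from 14124688 to 38406952. Replicates correlated across genes at r from 0.984 to 0.994 in 22 pairs, whereas WT replicate 2 correlated at 0.952 and 0.957 with the other WT libraries, with a chi-square of 204 to 242 per gene against at most 15.2 in every other pair. WT replicate 2 stood apart in these measures, and values without it are given beside the results of WT. The deposited names of the Csi and siSMAD2/3/4 libraries gave a flow cell, and those of the other 18 did not. Whether these sets were sequenced together is not known, so Csi and WT, both control MDA-MB-231 cells, were not tested against each other. Labels were checked on genes named for that purpose: HRAS averaged 220 CPM (counts scaled to library size) in MII Ctrl against 40.8 in MI Ctrl, and SMAD2, SMAD3 and SMAD4 fell by 1.92, 0.69 and 1.72 on the log2 scale in siSMAD2/3/4. The spheres carried CDH1 at group means of 527 to 716 CPM, and MDA-MB-231 carried VIM (vimentin) at 733 to 1010 CPM. PTPRC, the pan-leukocyte marker, had group means of at most 0.0847 CPM in the spheres. Keratins separated the systems less: KRT8 averaged 632 CPM in MI Ctrl and 602 in WT, and KRT18 547 and 462. Of 4 pan-epithelial markers, 2 were called lower in WT than in MI Ctrl and 4 than in MII Ctrl, with none higher. Of 7 luminal markers tested, 1 was called higher in WT than in MI Ctrl and 3 lower, with KRT19 at 347 against 3.23 CPM. LYZ, fixed as a leukocyte marker, stood at 35.7 CPM in MII Ctrl, and PECAM1, fixed as an endothelial one, at 104.7, and their part in the results below was not tested.

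The factors divided the 2 cell systems. Per kilobase of annotated exon, a rough scale for comparing genes, GRHL2 was the highest member in every sphere group, at a mean of 17.8 to 24.2 CPM per kb, and OVOL1 and OVOL2 stood between 3.15 and 14.5. In WT MDA-MB-231 the order turned, with ZEB1 (10.9) and SNAI2 (8.62) on top and GRHL2, OVOL2 and OVOL1 at 0.0129, 0.0114 and 0.00363. ZEB2, whose annotated exons sum to 26111 bases, reached at most 0.508 in any group. The divisor counts every annotated exon, so this value and the rank of ZEB2 depend on that sum. The EMT promoters were not ordered alike: SNAI1, TWIST1 and TWIST2 were higher per kilobase than ZEB1 in all 4 sphere groups, and in WT cells ZEB1 and SNAI2 exceeded all of them.

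**Figure D1:**
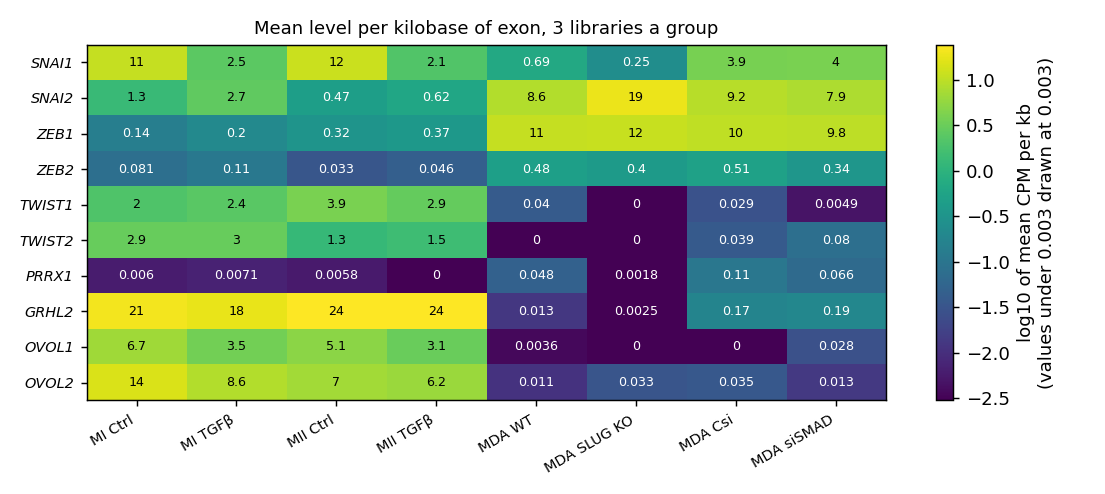
Mean CPM per kilobase of exon of each factor (rows) in each group (columns, 3 libraries each), with colour on a log10 scale. SNAI2, ZEB1 and ZEB2 are highest in the MDA-MB-231 columns, and TWIST1, TWIST2, GRHL2, OVOL1 and OVOL2 in the sphere columns.

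ZEB1 (chr10:31318495-31529814) showed the widest rise among the EMT promoters. Its CPM were 1.31, 1.2 and 1.14 in MI Ctrl, 2.45, 3.05 and 2.72 in MII Ctrl, and 110.5, 67.0 and 106.3 in WT. The lowest value in WT, that of replicate 2, was still far above every sphere library. The log2 fold-change of WT against MI Ctrl was 6.26 (SE 0.291, adjusted p = 7.25e-06, edgeR quasi-likelihood with Benjamini-Hochberg adjustment over all genes, as throughout) and 5.10 (SE 0.275, adjusted p = 9.33e-06) against MII Ctrl. Without WT replicate 2 these were 6.43 and 5.29. In the order of group means, SLUG KO (99.1 CPM), WT (94.6), Csi (88.2) and siSMAD2/3/4 (85.0) overlapped as neighbours, a gap led down to MII TGFβ (3.17), which overlapped MII Ctrl (2.74), and MI TGFβ (1.77) and MI Ctrl (1.22) came last, each separated from its neighbour. ZEB1-AS1, a lncRNA on the opposite strand sharing 396 exon bases (4.58%) with ZEB1, stood at 3.99 CPM in WT and 1.48 in MI Ctrl, and pairs falling on exons of both genes were left uncounted.

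ZEB2 (chr2:144364364-144521057), the second ZEB repressor, had 1.66, 2.41 and 2.29 CPM in MI Ctrl, 0.927, 0.870 and 0.778 in MII Ctrl and 13.9, 12.9 and 10.9 in WT. No library of WT overlapped those of either sphere. The rise was 2.56 (log2, SE 0.238, adjusted p = 0.000109) over MI Ctrl and 3.87 (SE 0.236, adjusted p = 1.49e-05) over MII Ctrl, and 2.54 and 3.86 without WT replicate 2. The 4 MDA-MB-231 groups lay between 8.98 and 13.3 CPM with each neighbour overlapping, and MI TGFβ (2.90) overlapped MI Ctrl (2.12).

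SNAI2 (chr8:48917598-48921740), the target of the knockout, had 4.59, 4.43 and 3.95 CPM in MI Ctrl, 1.72, 1.34 and 1.56 in MII Ctrl and 30.2, 20.9 and 33.7 in WT. WT stood above both spheres in every library. The log2 fold-change was 2.70 (SE 0.242, adjusted p = 9.29e-05) over MI Ctrl and 4.21 (SE 0.267, adjusted p = 1.78e-05) over MII Ctrl, and 2.84 and 4.42 without WT replicate 2. From the top, SLUG KO (61.9 CPM) was separated from Csi (30.3), Csi, WT (28.3) and siSMAD2/3/4 (25.9) overlapped in turn, MI TGFβ (8.76) and MI Ctrl (4.32) were separated, and MII TGFβ (2.05) and MII Ctrl (1.54) overlapped.

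SNAI1 (chr20:49982980-49988886), the closest relative of SNAI2 in function, had the opposite pattern. It reached 20.3, 19.4 and 17.0 CPM in MI Ctrl and 23.2, 20.6 and 16.3 in MII Ctrl, against 0.714, 1.91 and 0.926 in WT. WT was lower in every library, by 4.01 on the log2 scale against MI Ctrl (SE 0.384, adjusted p = 0.000128) and by 4.08 against MII Ctrl (SE 0.402, adjusted p = 0.000134). WT replicate 2 held the highest of the 3 WT values, and without it the changes were -4.56 and -4.59. Csi (6.58 CPM) stood several times above WT (1.18) although both are MDA-MB-231 controls, and that difference was not tested. Below the 2 overlapping Ctrl spheres the order ran siSMAD2/3/4 (6.88) and Csi, which overlapped, then MI TGFβ (4.31), MII TGFβ (3.55), WT and SLUG KO (0.422), each separated.

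TWIST1 (chr7:19020991-19117636) and TWIST2 (chr2:238848032-238910534), both classed as EMT promoters, were sphere genes in these data. TWIST1 had 4.09, 3.32 and 4.78 CPM in MI Ctrl (267 counts in all) and 8.01, 7.53 and 8.06 in MII Ctrl (491 counts), but 2 counts in each WT library. The ratio of pooled counts was 51.0 for MI Ctrl over WT (95% exact interval 23.1 to 140.0) and 98.2 for MII Ctrl over WT (44.8 to 269), intervals that cover counting error only. TWIST2 had 362 counts over the 3 MI Ctrl libraries, 149 over MII Ctrl and none over WT. With 3 counts over the group as the limit that 0 allows (0.0397 CPM in WT), TWIST2 was at least 138-fold higher in MI Ctrl and at least 59.6-fold higher in MII Ctrl. Without WT replicate 2 the TWIST1 ratios were 52.1 and 100.3, and the TWIST2 bounds at least 94.2-fold and 40.6-fold. Both genes were called lower in WT than in either sphere (adjusted p from 5.15e-06 to 0.000165). A lncRNA opposite TWIST1 (ENSG00000232821, 141 shared exon bases) had at most 15 counts in any library.

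PRRX1 (chr1:170662728-170739421) was at the limit of detection, with at most 2 counts in any sphere library and 22, 4 and 5 in WT, 29, 32 and 31 in Csi, 14, 26 and 16 in siSMAD2/3/4 and 0, 0 and 1 in SLUG KO. It passed the low-count filter in the siSMAD2/3/4 comparison only. Its highest group mean, 0.886 CPM in Csi, was above siSMAD2/3/4 in every library, and below 1 CPM.

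GRHL2 (chr8:101492439-101669726), a Grainyhead activator of CDH1 and other junction genes, had 125.1, 128.6 and 127.7 CPM in MI Ctrl and 145.4, 145.3 and 149.3 in MII Ctrl. WT held 3, 1 and 2 counts of GRHL2, a mean of 0.0782 CPM. Pooled counts gave a ratio of 1600 for MI Ctrl over WT (734 to 4360) and 1840 for MII Ctrl over WT (847 to 5030), and both were called (adjusted p = 2.75e-06 and 2.15e-06). Without WT replicate 2 the ratios were 1310 and 1510. Csi held 28, 34 and 48 counts, so that GRHL2 was not equally low in the 2 sets of MDA-MB-231 controls. That difference was not tested because the sets may have been sequenced apart.

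OVOL1 (chr11:65787063-65797214) and OVOL2 (chr20:17956979-18059188) are zinc-finger repressors of ZEB1. OVOL1 had 27.5, 22.7 and 26.5 CPM in MI Ctrl, 17.7, 21.9 and 19.0 in MII Ctrl and a single count over the 3 WT libraries, a ratio of 1940 (348 to 76800) and 1510 (271 to 59900). OVOL2 had 31.8, 31.7 and 32.3 CPM in MI Ctrl, 15.4, 17.4 and 13.6 in MII Ctrl and 2 counts over WT, a ratio of 1210 (333 to 9970) and 599 (165 to 4950). Both were called in both comparisons (adjusted p from 7.37e-06 to 1.9e-05). The single OVOL1 count lay in WT replicate 2, without which OVOL1 was at least 441-fold and 344-fold higher in the spheres and the OVOL2 ratios were 821 and 408. OVOL2 shares 59 exon bases with SNX5 on the same strand, and SNX5 stood at 127 CPM in WT, where OVOL2 was near 0. OVOL1 shares 1039 exon bases with a lncRNA on the other strand (ENSG00000255404) that had 0 counts in every library.

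**Figure D2:**
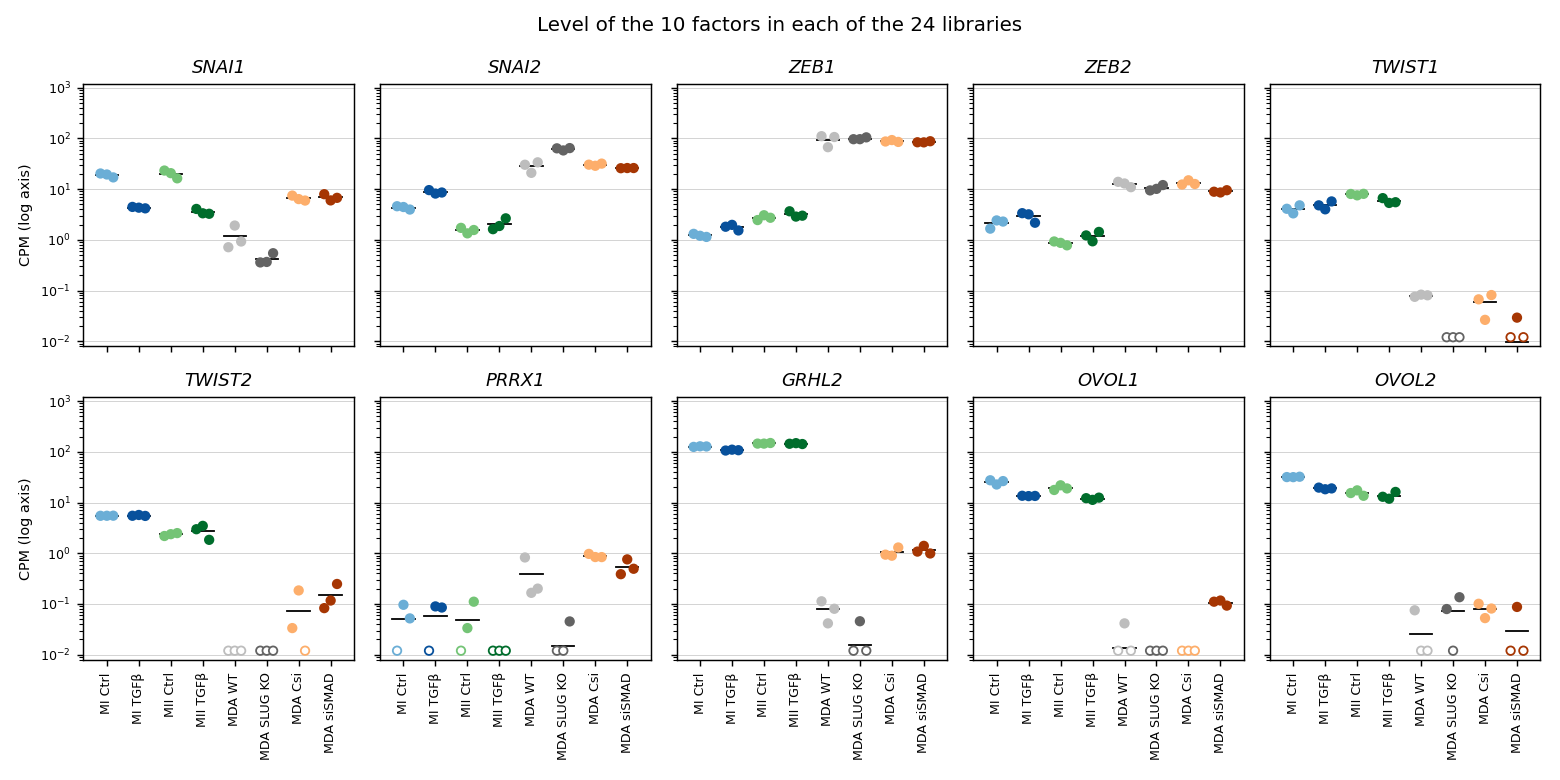
CPM (log axis) of each factor in every library, with a bar at the group mean and open circles for libraries with 0 counts, drawn at the foot of the axis. SNAI2, ZEB1 and ZEB2 stand higher in all 12 MDA-MB-231 libraries than in the spheres, and GRHL2, OVOL1, OVOL2, TWIST1 and TWIST2 stand lower.

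Counted over the members, 9 of 10 were testable between WT and MI Ctrl, 3 being called higher (SNAI2, ZEB1, ZEB2) and 6 lower, where 28.1% of all tested genes were called higher and 25.9% lower. The same 9 were testable against MII Ctrl, again with 3 higher and 6 lower, beside 27.4% and 27.7% of all genes. These comparisons share the WT libraries and are not independent, and without WT replicate 2 each of the 9 was called in both. TWIST1, TWIST2, GRHL2, OVOL1 and OVOL2 held 0 to 6 counts over WT and passed the low-count filter through the sphere libraries. Their lower calls, here and above, were therefore close to fixed by the filter and are read as levels only.

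Listed epithelial and mesenchymal genes also differed between WT and the spheres. Of 35 epithelial junction and polarity genes, 34 were tested between WT and MI Ctrl, of which 31 were called lower and none higher, at a median log2 fold-change of -4.23 beside 0.059 over all tested genes. CLDN1 (claudin-1, -5.48, SE 0.184), CDH1 (-8.74, SE 0.344) and CDH3 (P-cadherin, -9.41, SE 0.370) led by adjusted p. Of 33 mesenchymal and matrix genes, 30 were tested, with 23 higher and 4 lower (median 2.35), led by CDH11 (12.83, SE 0.391), VIM (8.83, SE 0.315) and CCN2 (6.40, SE 0.252). CDH2 (N-cadherin), the textbook counterpart of CDH1, did not pass against MI Ctrl (-0.40, SE 0.509, adjusted p = 0.539) and was lower against MII Ctrl (-1.83, SE 0.503, adjusted p = 0.0171). Against MII Ctrl none of 34 junction genes was higher and 31 were lower (median -4.15), and 22 of 28 mesenchymal genes were higher and 3 lower (median 2.62). Without WT replicate 2, 33 junction genes were lower in each comparison, with none higher against MI Ctrl and 1 against MII Ctrl, and 23 and 22 mesenchymal genes were higher and 5 and 4 lower.

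Other factors on the epithelial side were lower as a group. Of 17 listed, 14 were tested against MI Ctrl, with none higher and 12 lower (median -3.83), among them FOXA1 (a luminal pioneer factor, -10.48, SE 0.286), ELF3 (-7.17, SE 0.224) and GRHL1 (-5.99, SE 0.282). Of 26 other factors linked to EMT, 22 were tested against MI Ctrl and split into 10 higher and 9 lower (median 0.40), whereas against MII Ctrl 5 of 21 were higher and 10 lower (median -0.53). ETS1 (4.20, SE 0.183) and HMGA2 (2.80, SE 0.207) were higher, whereas TCF4, an E-box partner of TWIST proteins, was lower (-5.64, SE 0.266). Of 18 cofactors of the EMT repressors, all tested, 9 were higher and none lower, with AJUBA (2.93, SE 0.214), EZH2 (2.40, SE 0.188) and SUV39H1 (2.62, SE 0.253) leading. Of 15 regulators of repressor protein stability, 14 were tested, with 4 higher and 3 lower. Against MII Ctrl 1 of 15 other epithelial factors was higher and 13 lower, 8 of 18 cofactors were higher and none lower, and 2 of 14 stability regulators were higher and 3 lower. Without WT replicate 2 the counts against MI Ctrl were 10 higher and 11 lower for the EMT-linked factors (median -0.08), 1 and 14 of 15 for the epithelial factors, 10 and 3 for the cofactors and 5 and 6 for the stability regulators.

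MIR200CHG, the host of miR-200c and miR-141, had 16.8, 15.9 and 16.5 CPM in MI Ctrl and 14.2, 12.6 and 11.5 in MII Ctrl. It stood at 0 in every SLUG KO, Csi and siSMAD2/3/4 library and at a mean of 0.0501 in WT. MIR205HG followed, at 198 CPM in MI Ctrl, 54.7 in MII Ctrl, 0 in each WT library and 0.0271 in Csi. These are levels of host transcripts and not of the mature miRNAs printed above.

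**Figure D3:**
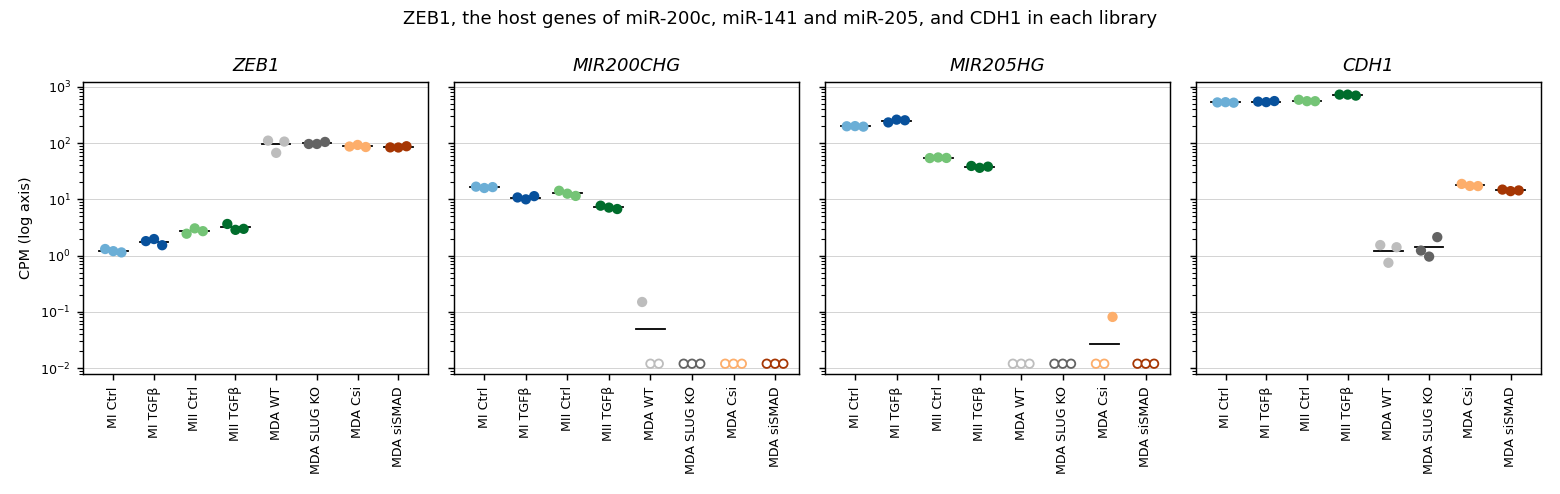
CPM (log axis) in each library of ZEB1, of the host transcripts of miR-200c and miR-141 and of miR-205, and of CDH1, with bars at group means and open circles for 0 counts. ZEB1 is high in the MDA-MB-231 groups, where MIR200CHG and MIR205HG are at or near 0, and CDH1 is lower there, at 1.23 CPM in WT and 17.8 in Csi.

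The question asked of the spheres was how normal and HRAS-transformed epithelium respond to TGFβ. SNAI1 gave the largest response of any member in both lines, and it was a fall. In MI-spheres SNAI1 went from 20.3, 19.4 and 17.0 CPM to 4.45, 4.30 and 4.17, a log2 fold-change of -2.22 (SE 0.112, adjusted p = 6.44e-13). In MII-spheres it went from 23.2, 20.6 and 16.3 to 4.06, 3.33 and 3.26, a log2 fold-change of -2.53 (SE 0.134, adjusted p = 1.12e-22). Treated and untreated libraries were far apart in both, and the 2 responses did not pass the test of their difference (MII minus MI -0.29, SE 0.197, 95% interval -0.68 to 0.09, adjusted p = 0.324). The measurement is a single time point of 16 h. The paper, by RT-qPCR of both spheres after 16 h of TGFβ, lists SNAI1 among the upregulated genes, the opposite direction. The reason for this disagreement was not tested.

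SNAI2 moved the other way in MI-spheres. It rose there from 4.59, 4.43 and 3.95 CPM to 9.55, 8.16 and 8.56 (log2 fold-change 0.92, SE 0.131, adjusted p = 4.64e-06), so that every treated library exceeded every untreated one. In MII-spheres the values of 1.72, 1.34 and 1.56 against 1.62, 1.87 and 2.65 overlapped (0.40, SE 0.274, adjusted p = 0.207). The difference between the lines was not called (-0.51, SE 0.276, 95% interval -1.05 to 0.03, adjusted p = 0.204).

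Neither ZEB gene was called in either line. ZEB1 went from a mean of 1.22 ± 0.0857 to 1.77 ± 0.222 CPM (SD, n = 3) in MI-spheres (log2 fold-change 0.45, SE 0.264, adjusted p = 0.156) and from 2.74 ± 0.298 to 3.17 ± 0.423 in MII-spheres (0.15, SE 0.206, adjusted p = 0.539). The 3 treated MI libraries lay above the untreated ones, but with 81 and 113 counts over a group the 95% interval ran from -0.07 to 0.96, and in MII-spheres from -0.25 to 0.56. ZEB2 gave 0.38 (SE 0.231, adjusted p = 0.172) in MI-spheres, where it was called once MI TGFβ replicate 3 was left out (0.58, adjusted p = 0.0339), and 0.44 (SE 0.344, adjusted p = 0.278) in MII-spheres.

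TWIST1 was called lower with TGFβ in MII-spheres, from 8.01, 7.53 and 8.06 CPM to 6.63, 5.33 and 5.51 (-0.46, SE 0.138, adjusted p = 0.00364), with no overlap, though DESeq2 gave an adjusted p of 0.0570. In MI-spheres its 4.09, 3.32 and 4.78 against 4.78, 3.99 and 5.71 overlapped (0.17, SE 0.170, adjusted p = 0.413). TWIST2 was not called in MI-spheres (adjusted p = 0.681) or MII-spheres (adjusted p = 0.492).

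All 3 epithelial factors fell in MI-spheres, and OVOL1 also fell in MII-spheres. OVOL1 went from 27.5, 22.7 and 26.5 CPM to 13.6, 13.4 and 13.5 in MI-spheres (-1.01, SE 0.0881, adjusted p = 4.52e-09) and from 17.7, 21.9 and 19.0 to 12.2, 11.3 and 12.5 in MII-spheres (-0.76, SE 0.0958, adjusted p = 2.07e-09). Neither pair of groups overlapped. OVOL2 went from 31.8, 31.7 and 32.3 to 19.7, 18.3 and 19.0 in MI-spheres (-0.83, SE 0.0726, adjusted p = 4.4e-09), but its 15.4, 17.4 and 13.6 against 13.0, 11.9 and 16.2 in MII-spheres overlapped (-0.23, SE 0.105, adjusted p = 0.0575). That last result passed when MII Ctrl replicate 3 (adjusted p = 0.0163) or MII TGFβ replicate 3 (adjusted p = 0.00691) was left out. It also passed under the filter of at least 10 counts in every library.

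GRHL2 fell slightly in MI-spheres, from 125.1, 128.6 and 127.7 CPM to 106.1, 110.3 and 107.7 (-0.32, SE 0.0518, adjusted p = 2.77e-05), without overlap. In MII-spheres its 144.3, 148.3 and 142.5 CPM with TGFβ against 145.4, 145.3 and 149.3 without overlapped (-0.051, SE 0.0407, 95% interval -0.13 to 0.03, adjusted p = 0.286). Under the filter of at least 10 counts in every library GRHL2 was called lower in MII-spheres (adjusted p = 0.0492). The difference between the lines itself passed for GRHL2 (MII minus MI 0.27, SE 0.0653, adjusted p = 0.00148) and for OVOL2 (0.62, SE 0.134, adjusted p = 0.000568), and in every alternative run. It passed for TWIST1 in the opposite direction (-0.62, SE 0.216, adjusted p = 0.0329), a call lost in 8 of 17 alternatives.

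**Figure D4:**
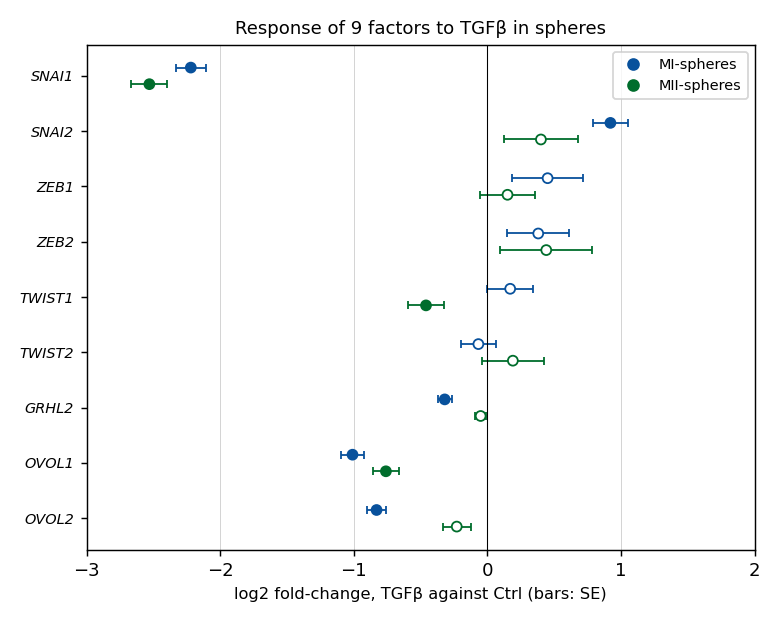
Log2 fold-change with its SE of the 9 tested factors, TGFβ against Ctrl, in MI- and MII-spheres, filled where the adjusted p was below 0.05. SNAI1 and OVOL1 are lower in both lines, SNAI2 is higher in MI-spheres, GRHL2 and OVOL2 are lower in MI-spheres, and TWIST1 is lower in MII-spheres.

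In all, 1 of 9 tested members was called higher and 4 lower in MI-spheres, where 28.7% and 27.4% of all genes were, and none higher and 3 lower in MII-spheres, beside 29.9% and 27.6%. For the difference between the lines 2 members were called higher and 1 lower, beside 12.6% and 9.75%. These counts are read against those shares.

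Among the listed genes, most mesenchymal ones tested rose in MI-spheres. In MI-spheres 24 of 27 tested mesenchymal and matrix genes were called higher and 1 lower (median log2 fold-change 1.18 beside -0.016 over all genes), with FN1 (fibronectin) at 2.16 (SE 0.0634), VIM at 2.03 (SE 0.166) and CDH2 at 1.83 (SE 0.180). In MII-spheres 14 of 24 were higher and 3 lower (median 0.38), and FN1 was not called (0.09, SE 0.0432, adjusted p = 0.061). The FN1 response differed between the lines (-2.06, SE 0.0777, adjusted p = 2.31e-22), and of 28 mesenchymal genes tested for that difference 4 were higher and 12 lower (median -0.56), against 20 higher and 4 lower of 34 junction genes (median 0.33). The summed level of 8 basal epithelial markers also moved with TGFβ, from 2950-3020 to 5000-5220 CPM in MI-spheres and from 1460-1550 to 2830-3020 in MII-spheres. That of 8 fibroblast markers went from 24.3-27.0 to 52.4-55.5 CPM in MI-spheres, where COL3A1 averaged 1.48 and then 13.4 CPM, and from 9.72-11.5 to 7.88-8.73 in MII-spheres. That of 5 endothelial markers went from 31.5-34.7 to 13.4-14.8 in MI-spheres and from 114.6-117.2 to 97.4-108.3 in MII-spheres. The markers within a sum did not all move together. In MII-spheres COL1A1 averaged 9.84 and then 4.02 CPM, whereas FAP averaged 0.618 and then 3.62. In MI-spheres CDH5 averaged 22.2 and then 2.20 CPM, whereas PECAM1 averaged 9.80 and then 10.5. The part of these markers in the results was not tested. VIM remained low in absolute terms, from 1.71 ± 0.105 to 7.46 ± 0.851 CPM (SD, n = 3) in MI-spheres, where WT MDA-MB-231 had 785.

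Of the epithelial junction and polarity genes, 34 were tested in each line, with 9 higher and 16 lower in MI-spheres and 15 higher and 9 lower in MII-spheres. CDH1 was not called in MI-spheres (-0.03, SE 0.0478, adjusted p = 0.578) and rose in MII-spheres, from a mean of 566 to 716 CPM (0.30, SE 0.0340, adjusted p = 5.88e-11). EPCAM rose in both (1.07, SE 0.0624 and 0.63, SE 0.0383), as did the desmosomal genes DSC2 (2.03, SE 0.0516 and 1.08, SE 0.0344) and DSP (0.88 in both lines). In MI-spheres TJP3 (-1.14, SE 0.0591), CLDN4 (-0.64, SE 0.0483) and the splicing regulator ESRP2 (-0.79, SE 0.0610) fell. MIR200CHG fell in both lines (-0.69, SE 0.0918, adjusted p = 1.82e-06 and -0.85, SE 0.119, adjusted p = 2.17e-08), while MIR205HG rose in MI-spheres (0.25, SE 0.0536) and fell in MII-spheres (-0.57, SE 0.0597).

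Among the other listed factors, TCF4 rose in both lines (0.90, SE 0.102 and 0.61, SE 0.0570) and FOXQ1 fell in both (-1.56, SE 0.123 and -1.34, SE 0.110), in lists of which 4 and 6 were higher and 7 and 5 lower of 20 tested. Of the other epithelial factors, 3 of 14 tested were higher and 8 lower in MI-spheres, with KLF4 (-2.0, SE 0.0781), ELF3 (-1.05, SE 0.0492) and FOXA1 (-1.15, SE 0.0581) falling and TP63 rising (0.69, SE 0.0587), and 6 of 15 were higher and 6 lower in MII-spheres. KDM1A, the demethylase recruited by SNAI1, rose in both lines (0.46, SE 0.0507 and 0.46, SE 0.0413), in a cofactor list with 4 higher and 5 lower of 18 in MI-spheres and 9 higher and 3 lower in MII-spheres. Of the regulators of repressor stability 5 and 2 of 14 were higher and 2 and 4 lower.

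Without TGFβ the HRAS-transformed spheres already differed from MI-spheres in 8 of 9 tested members. ZEB1 (1.19, SE 0.241, adjusted p = 2.31e-05), TWIST1 (0.96, SE 0.139, adjusted p = 2.77e-08) and GRHL2 (0.22, SE 0.0394, adjusted p = 3.14e-06) were higher in MII Ctrl. SNAI2 (-1.51, SE 0.206, adjusted p = 5.3e-09), ZEB2 (-1.27, SE 0.286, adjusted p = 0.000108), TWIST2 (-1.20, SE 0.170, adjusted p = 1.32e-08), OVOL1 (-0.36, SE 0.0780, adjusted p = 5.84e-05) and OVOL2 (-1.01, SE 0.0753, adjusted p = 1.35e-17) were lower. For each of these 8 members the libraries of the 2 groups did not overlap, as for 67.5% of all genes tested, and each call held in every alternative run. Paralogues thus differed in sign, ZEB1 from ZEB2 and TWIST1 from TWIST2. SNAI1 was not called (0.085, SE 0.0868, 95% interval -0.08 to 0.26, adjusted p = 0.397). Of all genes 31.7% were called higher and 32.5% lower in this comparison, which shares its MI Ctrl libraries with those above. Cell type markers moved in it as well, with 1 of 8 basal markers called higher and 6 lower (median -0.66), 5 of 7 luminal ones higher and 2 lower (median 0.66) and 4 of 4 pan-epithelial ones higher, and their part in the member values was not tested.

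TWIST1 levels stood at 4.09, 3.32 and 4.78 CPM in MI Ctrl against 8.01, 7.53 and 8.06 in MII Ctrl, and TWIST2 at 5.48, 5.49 and 5.51 against 2.19, 2.38 and 2.50, so that the larger of the pair was TWIST2 in one line and TWIST1 in the other, also per kilobase (2.94 against 2.04 and 1.26 against 3.94). Among the list genes the basal factor TP63 was lower in MII Ctrl (-6.42, SE 0.124), as were GRHL3 (-2.89, SE 0.0905) and PRRX2 (-4.10, SE 0.257), whereas SOX9 (2.27, SE 0.0516), TCF4 (2.08, SE 0.0741) and EPCAM (1.59, SE 0.0451) were higher. Of the junction genes 11 were higher and 17 lower of 34 tested, of the mesenchymal ones 11 higher and 12 lower of 26, of the other EMT-linked factors 12 higher and 4 lower of 21, of the other epithelial factors 7 higher and 8 lower of 15, of the cofactors 6 higher and 9 lower of 18, and of the stability regulators 6 higher and 3 lower of 14.

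The knockout comparison begins with its target. In the libraries labelled SLUG KO, SNAI2 had 63.6, 57.8 and 64.3 CPM, against 30.2, 20.9 and 33.7 in WT. SNAI2 was thus higher in every library labelled SLUG KO (log2 fold-change 1.10, SE 0.214, adjusted p = 0.0399). The count covers all exons, so a small insertion or deletion at the start of the first exon is not visible in it, and it checks neither the edit nor the protein. The paper states that its knockout clones were checked by ddPCR and by immunoblotting. Without WT replicate 2 the value was 0.94 (SE 0.0970, adjusted p = 2.54e-06), whereas with WT replicate 2 kept the call was lost when any other single library was left out (adjusted p from 0.0628 to 0.221) and with the replicate block (adjusted p = 0.108).

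The other tested members were not called. SNAI1 had 0.358, 0.366 and 0.544 CPM in the libraries labelled SLUG KO against 0.714, 1.91 and 0.926 in WT, lower without overlap (-1.50, SE 0.472, adjusted p = 0.154, and -0.96 without WT replicate 2). ZEB1 gave 0.041 (SE 0.222, 95% interval -0.39 to 0.48, adjusted p = 0.933) and ZEB2 -0.28 (SE 0.202, adjusted p = 0.482). The other 6 did not pass the low-count filter, among them GRHL2 (3, 1 and 2 counts in WT against 0, 1 and 0), OVOL1 (1 count over WT, none over SLUG KO) and PRRX1 (31 counts over WT, 22 of them in replicate 1, against 1). So 1 of 4 tested members was higher and none lower, beside 1.45% and 1.89% of all genes. The number of genes called was 581, and 5592 without WT replicate 2.

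Of 28 epithelial junction genes tested in this comparison 3 were called higher and 2 lower: CLDN1 (2.34, SE 0.208), ST14 (2.79, SE 0.368) and CLDN4 (0.83, SE 0.169) rose, and DSC2 (-6.77, SE 0.699) and DSP (-1.61, SE 0.211) fell. CDH1 stayed near 1 CPM (1.23 in WT, 1.44 in SLUG KO, adjusted p = 0.826) and VIM was not called (-0.12, SE 0.221, adjusted p = 0.785). Of 28 mesenchymal genes 1 was higher (COL3A1, 2.03, SE 0.335) and 4 lower, with FN1 at -3.17 (SE 0.234). Of 17 other EMT-linked factors KLF8 was higher (2.11, SE 0.270) and 4 were lower, among them SOX4 (-5.96, SE 0.221) and LEF1 (-3.52, SE 0.308). Of 11 other epithelial factors KLF4 was higher (0.88, SE 0.179) and SPDEF (-6.25, SE 0.466) and TFAP2C (-1.03, SE 0.201) lower. No cofactor and no stability regulator was called. These list counts rest on WT replicate 2. Without it 13 junction genes were higher and 3 lower, 9 mesenchymal genes higher and 9 lower, 3 EMT-linked factors higher and 6 lower, 2 of 13 epithelial factors higher and 2 lower, no cofactor higher and 9 of 18 lower, and 1 stability regulator higher and 3 lower, beside 16.8% and 14.4% of all genes. VIM was then called lower (-0.29, SE 0.0965, adjusted p = 0.0291), and the called genes named here kept their calls and directions. CDH1 remained uncalled, with a value near 0 (-0.05, SE 0.348, adjusted p = 0.933).

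**Figure D5:**
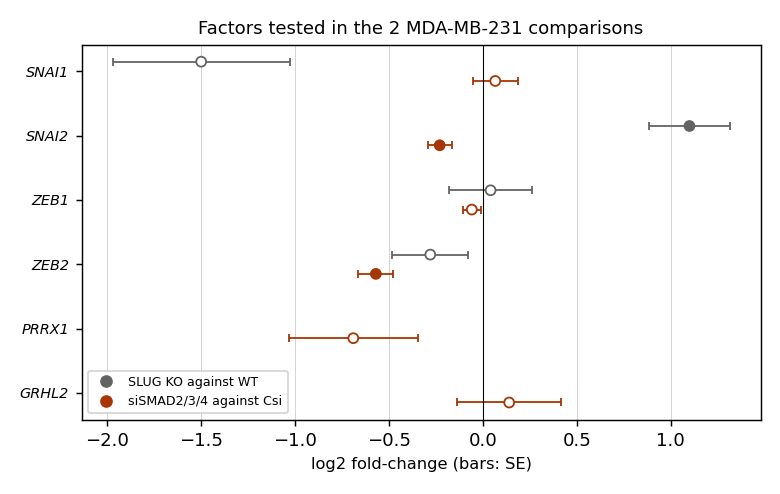
Log2 fold-change with its SE of the factors tested in MDA-MB-231, SLUG KO against WT (4 factors) and siSMAD2/3/4 against Csi (6 factors), filled where the adjusted p was below 0.05. SNAI2 is higher in SLUG KO and lower in siSMAD2/3/4, and ZEB2 is lower in siSMAD2/3/4.

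In siSMAD2/3/4 ZEB2 and SNAI2 were called lower. ZEB2 went from 12.3, 14.9 and 12.6 CPM in Csi to 8.87, 8.58 and 9.50, without overlap (-0.57, SE 0.0936, adjusted p = 1.08e-05). SNAI2 went from 30.3, 28.8 and 31.8 to 25.8, 26.0 and 26.0, also without overlap but small (-0.23, SE 0.0643, adjusted p = 0.00515). By their deposited names, 2 of the 3 siSMAD2/3/4 libraries came from a flow cell that held no Csi library. With the flow cell as a term the difference therefore rests on siSMAD2/3/4 replicate 3 alone, on another lane than Csi, and gave -0.48 for ZEB2 (adjusted p = 0.00872) and -0.21 for SNAI2 (adjusted p = 0.0965), so flow cell and depletion are not told apart in the other 2 libraries.

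SNAI1 (0.066, SE 0.121, adjusted p = 0.722), ZEB1 (-0.059, SE 0.0466, 95% interval -0.15 to 0.03, adjusted p = 0.356), PRRX1 (-0.69, SE 0.344, adjusted p = 0.120) and GRHL2 (0.14, SE 0.278, adjusted p = 0.750) were not called. OVOL1 had 4, 4 and 3 counts in siSMAD2/3/4 and 0 in each Csi library, at least 3.73-fold higher over the group, but did not pass the low-count filter. Thus none of 6 tested members was higher and 2 were lower, beside 16.3% and 19.7% of all genes.

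Around them CCN2 (-0.61, SE 0.0421) and ITGB1 (-0.50, SE 0.0388) fell, in a mesenchymal list with 8 higher and 7 lower of 29 tested. Of 29 junction genes 10 were higher, led by LLGL2 (0.77, SE 0.0496), JUP (0.64, SE 0.0431) and PKP3 (0.67, SE 0.0537), and 5 lower, while CDH1 fell (-0.30, SE 0.0779, adjusted p = 0.00236). Of 20 other EMT-linked factors 4 were higher, such as FOXQ1 (0.63, SE 0.0442) and SOX4 (0.39, SE 0.0418), and 4 lower, and of 15 other epithelial factors 5 were higher, such as KLF4 (0.45, SE 0.0540) and GRHL3 (1.5, SE 0.404), and 1 lower. Among 18 cofactors 3 were higher and 6 lower, EZH2 leading (-0.62, SE 0.0463), and among 13 stability regulators 3 were higher and none lower.

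Several genes ran parallel to the members over the 24 libraries. By Pearson's r of log2 CPM among 14795 protein-coding genes, those among the 2 nearest that are reported here were MERTK (0.994) and ETS1 (0.992) for ZEB1, GNG11 (0.991) and FBN1 (0.986) for SNAI2, EPB41L2 and PRR11 (0.986 each) for ZEB2, and CYP24A1 (0.955) for SNAI1. On the sphere side they were TMEM125 (0.994) and KRT23 (0.993) for TWIST1, PADI2 (0.988) for TWIST2, SMOC1 and TLE4 (0.995 each) for GRHL2, NECTIN4 (0.997) and H2AC25 (0.996) for OVOL1, and H2BC26 (0.994) and DGKA (0.993) for OVOL2. The 24 points share cell lines and groups, and the r is given as a description.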

How the data were processed

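RNA was sequenced from 24 libraries (TruSeq stranded total RNA with ribosomal depletion). Reads were trimmed (Trimmomatic) and mapped to GRCh38.p13 (STAR) by the authors, who, per the file headers, then counted fragments over GENCODE v38 exons with featureCounts from Subread 2.0.0, with both mates required to map and mapping quality at least 30, without strand and leaving out fragments over 2 genes. The headers of the WT libraries do not write out the exon option, which those of the other libraries do. The deposited values are raw counts per gene, 1 file a library, for 60708 genes, of which 60463 (99.6%) were named from GENCODE v44. The 16 ATAC-seq samples were not analysed here.

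Members and lists were chosen with earlier results of these data known. Comparisons used edgeR 4.0.16 (R 4.3.3) with filterByExpr, TMM scaling within the libraries compared and the quasi-likelihood test, adjusted by Benjamini-Hochberg over all tested genes, called below 0.05. Each SE is the log2 fold-change over the square root of F, and 95% intervals are 1.96 SE on either side. Levels are CPM after TMM over all 24 libraries, so a ratio of levels can differ slightly from a fitted change. Neighbouring groups count as separated where their 3 libraries do not overlap, since an exact permutation test of 3 against 3 cannot go below 0.1. Named beyond the members were, per list and comparison, up to 3 called genes a direction with the smallest adjusted p, CDH1, EPCAM, VIM, CDH2, FN1, the checked genes, overlapping genes and the 2 nearest genes by correlation (prior count 2). MIR200CHG, MIR205HG in MI-spheres, GRHL1 against MI Ctrl, GRHL3 in MII against MI and the marker genes fall outside that rule and were named after their values were seen. Alternatives were DESeq2 1.42.0, its size factors, other count filters (none, or at least 10 counts in every library), a replicate block, leaving out each library, 1 fit of the 12 sphere libraries and a flow cell term. The labels do not say whether replicates are separate cultures, so p-values measure the spread between these libraries. Counting intervals and limits cover counting error only. Some genes that the naming rule gives are not reported here. Promoter windows of SNAI1, SNAI2, TWIST1, GRHL2, OVOL1 and OVOL2 were not used here.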

Additional observations from a re-analysis of the deposited data

Results flagged for a closer look

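The TGFβ response of 3 members differed between the lines by the test of the difference itself (MII minus MI, log2). GRHL2 differed by 0.27 and OVOL2 by 0.62, each lower with TGFβ in MI-spheres and, in the main run, not called in MII-spheres. TWIST1 differed by -0.62, called lower in MII-spheres and not called in MI-spheres. No group held more than 3 libraries, so no member value was tested for a library far from its group.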

How the results depend on the processing

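Of the member results recomputed under the alternatives, 748 kept their direction and their side of the threshold, 17 lost and 5 gained a call, and 10 changed sign. The sign changes were all of values that were not called: ZEB2 in the difference between the lines (-0.067, -0.020, -0.149 and -0.116, each without 1 library, in a range from -0.149 to 0.207), SNAI1 between MII and MI Ctrl (-0.013 without MII Ctrl replicate 1, up to 0.198), ZEB1 in SLUG KO (-0.141 without WT replicate 2, up to 0.199), SNAI1 in siSMAD2/3/4 (-0.003 without Csi replicate 3, -0.044 without siSMAD2/3/4 replicate 1, up to 0.169) and GRHL2 in siSMAD2/3/4 (-0.075 with the flow cell as a term, -0.019 to 0.33 with 1 library left out). Under the filter of 10 counts per library, 5 members in place of 3 were called in MII-spheres, and 4 in place of 9 between WT and either sphere, with 6527 genes called among 13692 tested in place of 10107 among 18732 (MI) and 6742 among 13672 in place of 10691 among 19422 (MII), since that filter removes genes near 0 in WT.

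The SLUG KO comparison depended most on the settings. It called 581 genes, against 1204 by DESeq2, 973 with no low-count filter, 260 with at least 10 counts in every library, and 133 to 5592 with 1 library left out, the highest without WT replicate 2. The members called numbered 1, against 2 with no filter (PRRX1 added, -4.34, adjusted p = 0.0428), 0 with at least 10 counts and 0 to 1 with 1 library left out. The flow cell term, which rests on 1 siSMAD2/3/4 library, left 1 of the 2 members called. Same-numbered replicates did not deviate together (r from -0.123 to 0.114, 1 of 21 pairs of groups above 0.1), so the numbers were not taken as pairs. The replicate block called 255 genes and 0 members in SLUG KO (SNAI2 1.13, adjusted p = 0.108) and moved no other count of calls by more than 1.5 times. Low counts limit PRRX1 in all groups and TWIST1, TWIST2, GRHL2, OVOL1 and OVOL2 in MDA-MB-231.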
